A study of Homo sapiens with 6 samples.

Results

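TTD peaks just downstream of transcription start sites (TSSs) are the broad peaks of the UHRF1 Tandem-Tudor domain (TTD) that begin in the first stretch of a gene without reaching back to its start. A peak was taken when it contained no TSS of a protein-coding gene, when the nearest such TSS lay at most 2500 bp from its edge, and when it lay on the transcribed side of that TSS by the strand of the gene. This gave 1106 of the 31569 peaks in the list, or 3.50% (95% Wilson interval 3.31 to 3.71), with a total length of 2872 kb, and they belong to 1102 genes. The peaks on the other side of a TSS, within the same limit, number 1674 and are called upstream flank peaks here, and 561 peaks contain a TSS. Of all 20033 protein-coding genes, 5.50% had a downstream peak by this rule, 8.30% an upstream flank peak and 2.80% their TSS in a peak.

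The TTD was used as a GST fusion (GST-UHRF1-TTD, residues 126 to 280 of the human protein) to pull native mononucleosomes out of chromatin, an assay named CIDOP in which a reading domain replaces the antibody of a ChIP. The chromatin came from untreated HepG2 cells, an established line from a hepatoblastoma, and was released with micrococcal nuclease (MNase). Of the 6 libraries, 2 each were TTD CIDOP, H3K9me2 ChIP and input, and the 2 TTD replicates were pooled by the authors before peaks were called. The list carries positions and widths but no height, depth or replicate, so no error between replicates and no test can be given, and the intervals printed with shares cover counting error only.

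UHRF1 brings the maintenance methyltransferase DNMT1 to newly replicated DNA, and its TTD reads H3 tails with di- or trimethylated lysine 9, with preference for tails that also carry monomethylated lysine 4. Active promoters carry H3K4me3 on the nucleosomes next to the TSS, and H3K4me1 is found on their flanks and at enhancers, many of which lie in the first introns of genes. Most promoters of housekeeping genes lie in CpG islands, GC-rich stretches in which CpG sites are frequent and mostly unmethylated, whereas many promoters of tissue-specific genes do not.

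The change of sequence between a start site and the peak that follows it can be read directly in ACSL3, a gene of lipid metabolism, and PLG, a gene of the blood plasma. The 150 bp before the TSS and the 150 bp inside the TSS-facing peak edge are printed for each, on the strand of the gene, 5′ to 3′, with every CpG site in capitals (hg38). Both have wide downstream peaks, in both the gene record starts at the canonical transcript, and they stand for a start in a CpG island by strict criteria (ACSL3) and a start outside islands (PLG). For ACSL3 on the plus strand the windows are chr2:222860792-222860941 and chr2:222862921-222863070, and for PLG on the plus strand chr6:160702044-160702193 and chr6:160704501-160704650.
ACSL3 before the TSS: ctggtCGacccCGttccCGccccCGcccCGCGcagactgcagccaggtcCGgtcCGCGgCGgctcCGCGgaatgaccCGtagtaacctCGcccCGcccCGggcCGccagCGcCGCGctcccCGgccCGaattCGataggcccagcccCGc
ACSL3 inside the peak edge: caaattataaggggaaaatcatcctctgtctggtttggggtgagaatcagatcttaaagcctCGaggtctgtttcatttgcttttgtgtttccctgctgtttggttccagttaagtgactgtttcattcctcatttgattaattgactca
PLG before the TSS: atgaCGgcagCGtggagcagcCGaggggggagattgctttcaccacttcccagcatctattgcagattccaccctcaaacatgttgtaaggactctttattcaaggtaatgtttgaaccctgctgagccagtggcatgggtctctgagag
PLG inside the peak edge: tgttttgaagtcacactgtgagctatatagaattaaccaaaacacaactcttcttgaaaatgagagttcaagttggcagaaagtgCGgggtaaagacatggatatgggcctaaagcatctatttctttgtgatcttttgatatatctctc

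The window before the TSS of ACSL3 contained 24 CpG sites at 78.0% GC, and the window inside its peak 1 CpG site at 39.3% GC. PLG started lower, with 3 CpG sites at 51.3% GC before the TSS, and had 1 site at 36.7% GC inside the peak edge. Both peak edges thus lay in CpG-poor sequence.

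Between the TSS and the near edge of the peak lay a median of 1245 bp (quartiles 830 and 1778 bp, n = 1106), and on the upstream side this distance was 547.5 bp (254.2 and 1190 bp, n = 1674). The rule bounds this distance alike on both sides, so the medians are a description and follow the limit, and the downstream median was 689 bp with a limit of 1000 bp and 1875 bp with a limit of 5000 bp. Within 500 bp of the TSS lay the near edge of 10.0% of the downstream peaks (8.40 to 11.9) and of 46.7% of the upstream flank peaks (44.3 to 49.0). Counted in bins of 250 bp from the TSS outwards, the downstream edges started at 45 and 66 peaks, reached 166 peaks between 750 and 1000 bp, and were at 90 peaks in the last bin before 2500 bp. The upstream edges had their highest number, 410 peaks, in the first bin, and declined to 50. Edges next to the TSS were thus rare downstream and most frequent upstream.

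**Figure D1:**
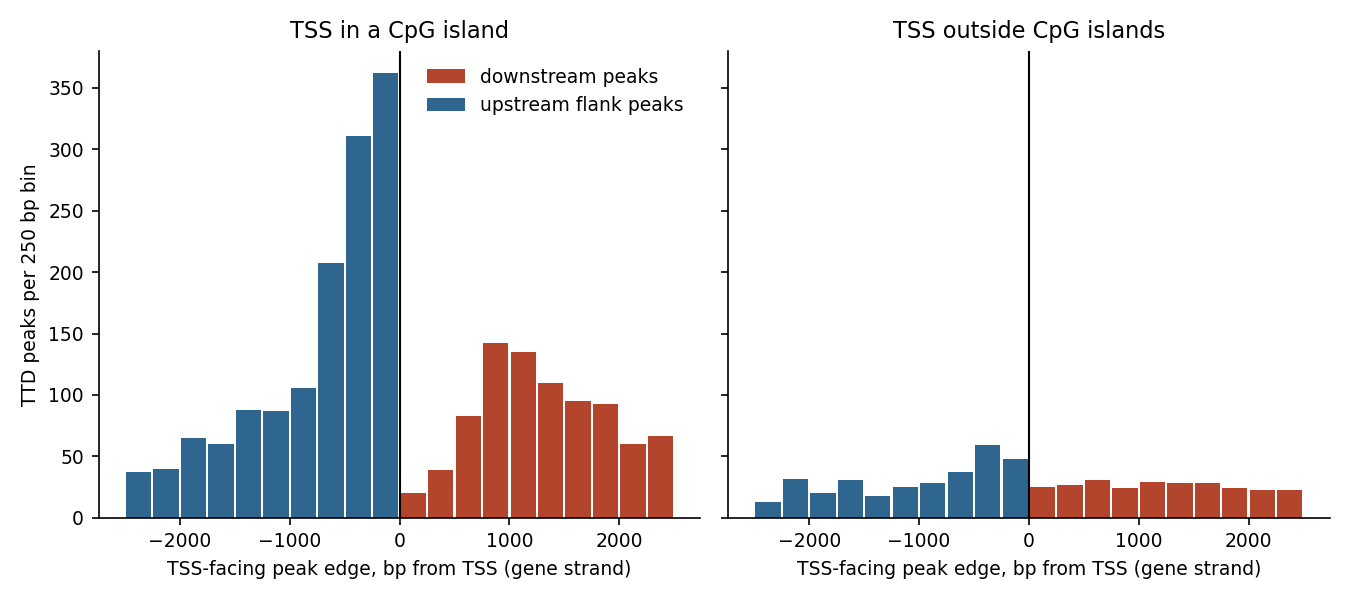
Number of TTD peaks by the distance of their TSS-facing edge from the TSS, in bins of 250 bp along the gene strand, for TSSs in a CpG island (left) and outside (right). Downstream peaks (red) of island TSSs are most frequent between 750 and 1000 bp with 142 peaks and rare in the first bin with 20, upstream flank peaks (blue) are most frequent next to the TSS with 362, and outside islands the downstream bins hold between 23 and 31 peaks each.

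Downstream peaks made up 39.8% (38.0 to 41.6) of the 2780 peaks on both flanks, and 25.3% when the limit was 1000 bp. The start used here is the 5′ end of the gene record, and for 188 peaks (17.0%) it lies over 500 bp before the start of the canonical transcript. With canonical starts instead, the medians were 1233 bp downstream and 563 bp upstream, and 953 of the 1106 peaks were again taken. Starts of neighbouring genes can also turn a downstream peak of a gene into an upstream peak of another. Over the 15027 TSSs without a further protein-coding TSS within 5000 bp, 37.3% (35.4 to 39.3) of the flank peaks lay downstream, at medians of 1278 bp downstream and 536 bp upstream.

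In width, the downstream peaks spanned 210 to 30790 bp with a median of 1985 bp (quartiles 1270 and 3070 bp). They were wider than the upstream flank peaks (1625 bp) but narrower than the peaks over a TSS (2840 bp) and the median of the whole list (2250 bp). At least 10 kb wide were 12 of them, or 1.08% (0.622 to 1.89), against 5.70% of the peaks over a TSS and 2.30% of all peaks. A wide peak is more likely to contain a TSS, so the rule itself sorts peaks by width. These differences are therefore a description and no trait of the downstream peaks.

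Among the widest downstream peaks, the one with the largest width belongs to ABCA9, an ABC transporter gene on chromosome 17 (minus strand, TSS at 69060949). It extends over 30790 bp from 69029041 to 69059830, begins 1119 bp after the TSS in the first intron, and covers 35.6% of the gene. NEDD9, a scaffold protein of focal adhesions, had a peak of 24550 bp, and TMEM45B and FRRS1 had peaks of 14010 and 13740 bp, both within their first introns.

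At the other end, the 5 nearest peaks began within 24 bp of their TSS, which is less than the length of a nucleosome. The edge at PCDHGB1, a clustered protocadherin, lay 2 bp after the start, and that at CNTD1 11 bp after it. The others were ENSG00000284956 with 18 bp, ODAPH with 23 bp and TMEM123 with 24 bp. The farthest edges inside the limit were those of YLPM1 at 2495 bp, RHOBTB3 at 2489 bp and ADRA1D at 2487 bp. Just outside it were ATP5MC1 at 2506 bp and the fibrinogen gene FGG at 2507 bp, with a peak of 5220 bp. The limit therefore separates peaks that differ by only a few bp in position. Positions in the list lie on a grid of 10 bp, so distances of this size are not exact.

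**Figure D2:**
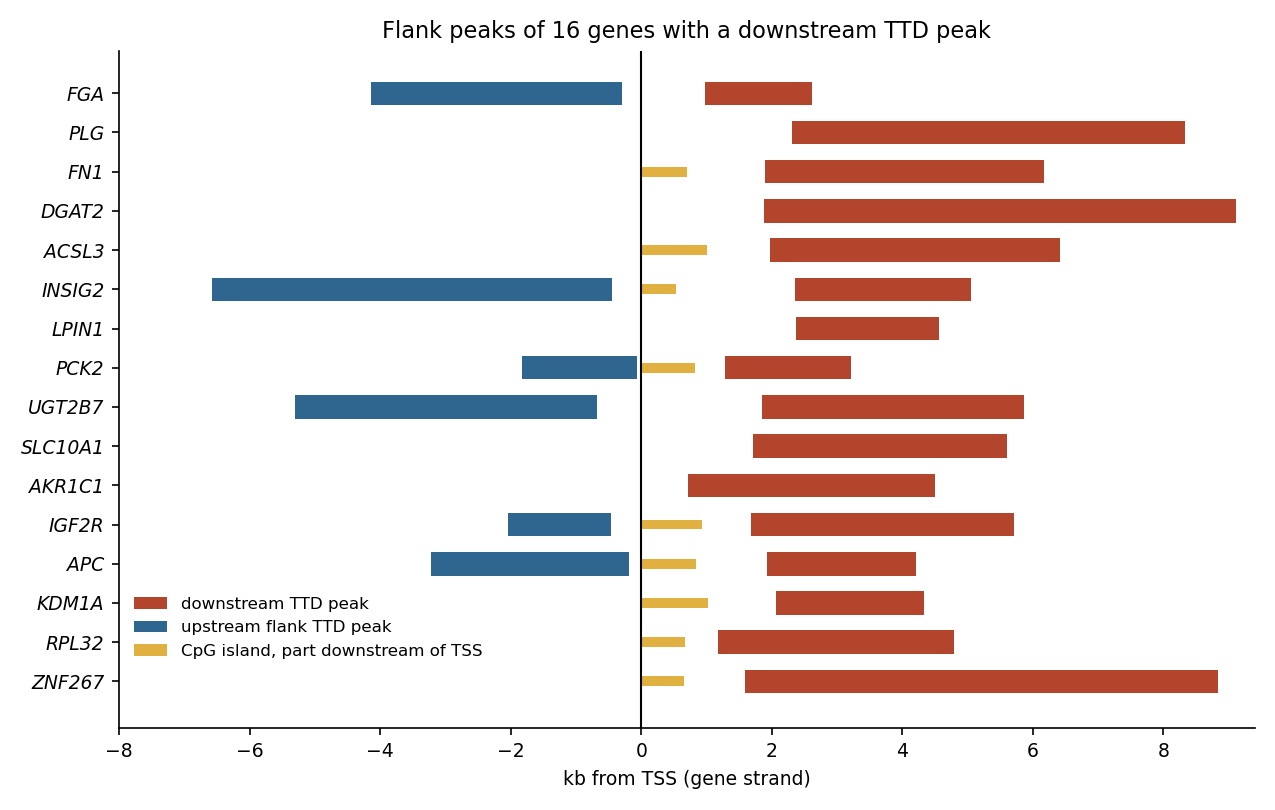
Flank peaks of 16 genes with a downstream TTD peak, drawn to scale along the gene strand in kb from the TSS, with downstream peaks in red, upstream flank peaks in blue and the downstream portion of a CpG island at the TSS in yellow. The red bars begin between 718 bp (AKR1C1) and 2376 bp (LPIN1), beyond the island end wherever an island is drawn, and 6 of the genes also have an upstream flank peak.

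Some of these genes had peaks on both sides of the start. Of the genes with a downstream peak, 262 of 1102 or 23.8% (21.4 to 26.4) also had an upstream flank peak, whereas 8.30% of all 20033 protein-coding TSSs had one. When peaks narrower than the median of the list were left out, the share was 11.8% beside 2.70% of all TSSs, and with TSSs of genes of any type it was 13.2% beside 4.01%. At these 262 starts the stretch between both peaks had a median of 1755 bp (quartiles 1200 and 2450 bp, range 610 to 4830 bp). It was not centred on the TSS. The upstream edge lay at a median of 416 bp and the downstream edge at 1220 bp, and the upstream edge was the nearer of both at 220 starts, or 84.0% (79.0 to 87.9).

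Among the genes with both flanks occupied and the widest downstream peaks, ABCA9 had an upstream peak of 1150 bp at 1032 bp from the TSS. MLANA, a melanocyte antigen gene, had a downstream peak of 11980 bp at 92 bp and an upstream peak of 2540 bp at 1839 bp. At AKR1C3, an aldo-keto reductase of steroid metabolism, the peaks measured 10840 bp downstream and 5560 bp upstream. SMLR1 had a downstream peak of 9860 bp that covers 95.7% of its gene, with an upstream peak of 6320 bp. The fibrinogen alpha gene FGA on chromosome 4 had an upstream peak of 3840 bp ending 299 bp before the TSS and a downstream peak of 1630 bp beginning 982 bp after it. MIPOL1 on chromosome 14 combined an upstream peak of 6120 bp at 274 bp with a downstream peak of 3590 bp at 1197 bp, and 30 peaks lay in the whole gene. In these genes the upstream peak was the nearer at each but MLANA.

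A CpG island, called here where 200 bp windows reach 50% GC and a CpG observed/expected ratio of 0.6, was present at the TSS of 842 of the 1102 genes, or 76.4% (73.8 to 78.8). Over all protein-coding TSSs this share was 68.0%, for genes with an upstream flank peak 81.4% (79.4 to 83.2), and for genes with a peak over the TSS 26.9% (23.4 to 30.7). By strict criteria (500 bp, 55% GC, ratio 0.65) the same shares were 67.3%, 59.9%, 74.8% and 19.6%. Seen from the starts, 6.18% of island TSSs (5.79 to 6.60) and 4.06% of the other TSSs (3.60 to 4.57) had a downstream peak. For the TSS itself the order was the opposite, since 1.11% of island TSSs and 6.40% of the others lay inside a peak.

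Where the TSS had an island, the peak mostly began beyond its end. The island ended at a median of 657.5 bp after the TSS, and the edge of the peak lay a further 539 bp on (quartiles 231.8 and 938.5 bp, n = 844). It was beyond the island end for 756 of 844 peaks, or 89.6% (87.3 to 91.5). On the upstream side the island ended 400 bp from the TSS and the peak began 81 bp beyond it (quartiles -138 and 520.5 bp, n = 1363), with 58.2% (55.5 to 60.8) beyond. With strict islands the distances beyond the end were 657 bp downstream and 152 bp upstream, and 92.3% and 66.6% of the edges lay beyond. The asymmetry of the flank peaks is thus seen against the island end as well as against the TSS, although islands themselves extend further downstream (median 772 bp) than upstream (489 bp) over all 13628 island TSSs. Across the 844 downstream peaks, the island end and the peak edge had a Pearson's r of 0.43 and a Spearman's rho of 0.424. Both distances are counted from the same TSS, and the rule bounds the distance of the peak edge but not the island end.

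At the 262 peaks whose TSS had no island, the median distance was 1220 bp, near the 1256 bp of island TSSs, but the lower quartile was 639.8 bp against 883.8 bp. These peaks were also wider, with a median of 2290 bp against 1920 bp. Their edges were spread evenly over the first 2500 bp, as the plot of edge distances shows.

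**Figure D3:**
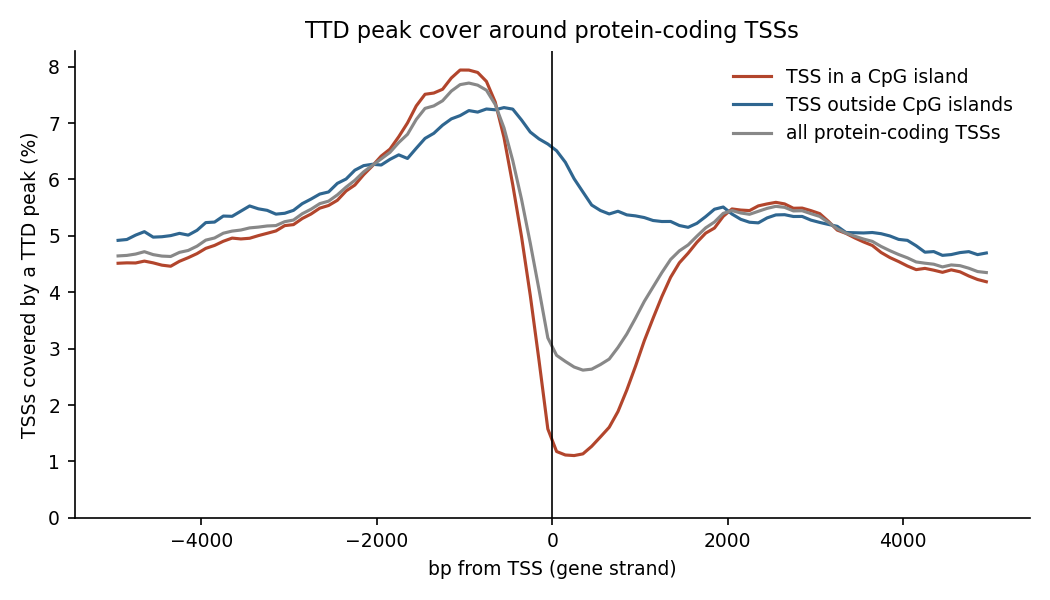
Percent of protein-coding TSSs covered by a TTD peak at each position from 5000 bp upstream to 5000 bp downstream, in 100 bp bins along the gene strand, for TSSs in a CpG island (red), outside islands (blue) and together (grey). The red line falls to 1.10% in the bin that starts 200 bp after the TSS and recovers more slowly downstream than upstream, and the blue line has no minimum at the TSS.

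Cover was also measured along all starts, without assigning peaks to genes. The percentage of the 20033 TSSs covered was 7.44% between 1500 and 500 bp upstream, 2.72% in the first 500 bp after the TSS, 3.69% between 500 and 1500 bp and 5.28% between 1500 and 2500 bp. Its lowest value, 2.62%, was in the bin that starts 300 bp after the TSS. For island TSSs the first 500 bp were covered to 1.16% and the stretch from 1500 to 2500 bp to 5.26%. For TSSs outside islands these values were 6.03% and 5.32%. Any peak in the first 2500 bp, whichever TSS it was nearest to, was present at 9.15% of all genes.

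The downstream peaks differed in sequence from the starts before them. The CpG observed/expected ratio was 0.77 in the 500 bp at the TSS (median), 0.627 in the gap between TSS and peak, and 0.215 in the peak (quartiles 0.165 and 0.279). GC content declined along the same path from 61.8% to 52.9% and 42.8%. The ratio was lower in the peak than at its TSS for 989 of 1106 peaks, or 89.4% (87.5 to 91.1). All peaks of the list had a median ratio of 0.193 and 43.2% GC, and the upstream flank peaks 0.252 and 44.5%. In these features a downstream peak thus resembled any other TTD peak more than it did the promoter next to it.

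Counted from the peak edge towards the TSS, the mean density was 4.98 CpG sites per 100 bp in the bin that starts 1100 bp away and 1.69 in the last 100 bp before the edge. Inside the peak it was 1.64 in the first 100 bp and 1.10 in the bin that starts at 600 bp. Upstream flank peaks had 3.41 sites before and 2.50 after the edge, and peaks more than 2500 bp from a TSS 0.975 and 1.03. The decline belonged to the downstream peaks of island TSSs, with 6.0 sites in the bin that starts 1100 bp away, 1.81 before the edge and 1.72 after it. At the peaks of TSSs outside islands the density was nearly level, with 1.68, 1.33 and 1.35 sites. Islands are called from the CpG content around the TSS, so the density towards the TSS is in part fixed by this split. At island TSSs the CpG-rich sequence therefore ended mostly before the downstream peaks began, while at upstream flank peaks the decline ran across the edge.

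**Figure D4:**
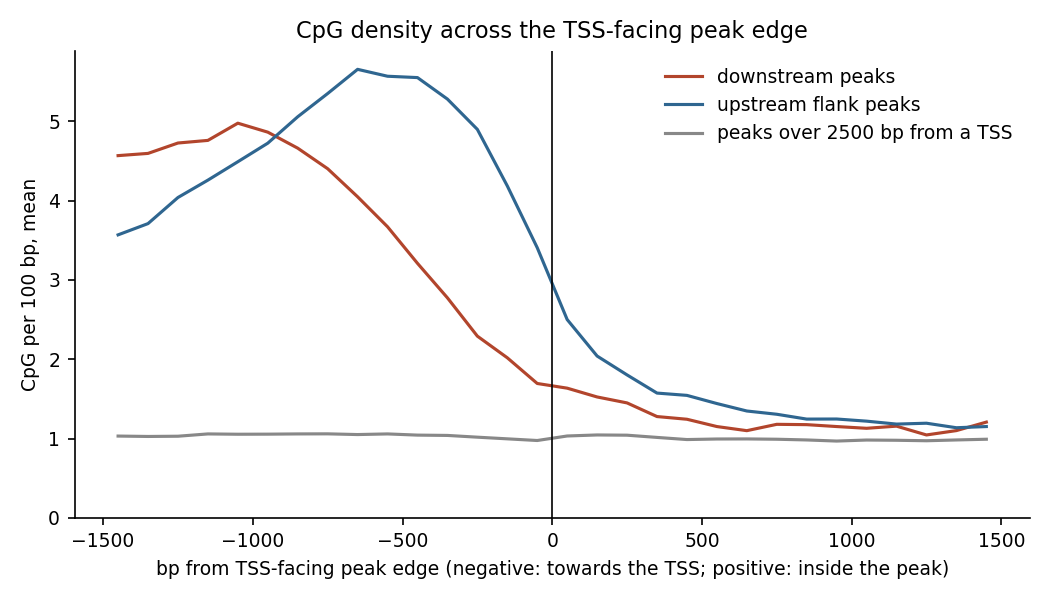
Mean CpG sites per 100 bp around the TSS-facing edge of downstream peaks (red) and upstream flank peaks (blue), and around an edge of peaks over 2500 bp from a TSS (grey), in 100 bp bins, with negative positions towards the TSS and positive positions inside the peak. Downstream peaks start after the density has declined to 1.69, upstream flank peaks start at 3.41, and the grey line stays near 1.03.

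There were exceptions. In 18 of the downstream peaks, or 1.63% (1.03 to 2.56), the CpG ratio was 0.6 or more, the ratio asked of an island. The GC criterion was not applied to them, and the share among other TTD peaks was not computed. Those named were chosen after their values were seen. The highest ratios were those at DNAJB6, a chaperone gene, with 1.04 over 640 bp, and PCDHB13, a protocadherin, with 0.858 over 280 bp. The histone genes H3C6 (0.792) and H4C8 (0.739) were among them, and so was PCDHGB1 with 0.673 over 2960 bp. Of the 18 peaks, 6 began within 500 bp of the TSS (33.3%, 16.3 to 56.3), beside 10.0% of all downstream peaks.

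In the structure of the gene, the first intron held most of the downstream peaks. The near edge lay in intron 1 of the canonical transcript for 749 peaks, or 67.7% (64.9 to 70.4), in a later intron for 7.96%, in exon 1 for 6.15% and in a later exon for 2.53%. Another 14.3% began between the gene start and the canonical start, and 1.36% past the end of a short transcript. Peaks wholly before the canonical start, and so upstream of it, include those of NEDD9, TMEM123, RHOBTB3, AKR1C3, UGT2B7, DGAT2 and LPIN1. The same holds for the peaks of PFKFB1, APC, ZNF19, SLC25A48, PSMF1 and SELENOP. Wholly within intron 1 were 611 peaks, or 55.2% (52.3 to 58.2), and 25.7% overlapped an exon. By length, 61.9% of the sequence under these peaks was intron 1, 14.1% later introns, 2.32% exon 1, 2.88% later exons and 18.8% outside the transcript. The genes had long first introns, with a median of 5809 bp against 3633 bp over all protein-coding genes, and long transcripts (31762.5 against 22913 bp). Their first exons were short, with a median of 172.5 bp against 185 bp over all protein-coding genes. The rule keeps the near edges close to the start, so many can fall in intron 1 by the rule alone. The share of intron 1 in the same stretch of all genes was not computed. The shares above therefore do not show whether first introns are preferred.

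Another annotated start lay inside 168 of the peaks, or 15.2% (13.2 to 17.4), and 11.0% of all peaks held one. Mostly these were starts of other transcripts of the same gene, which 133 peaks (12.0%) contained. An upstream flank peak cannot contain such a start, because the TSS is the 5′ end of the gene record. The start of a lncRNA gene lay in 2.26% (1.54 to 3.32) of the downstream peaks, 4.90% (3.96 to 6.04) of the upstream flank peaks and 3.80% of all peaks. For starts of other protein-coding genes these shares were 0.633% (0.307 to 1.30), 1.85% (1.31 to 2.62) and 1.54%, and for other gene types 1.63% (1.03 to 2.56), 2.27% (1.66 to 3.10) and 2.28%, where the intervals of both flanks overlapped. Peaks with the TSS of a protein-coding gene were kept out of both flank groups but not out of the whole list, so its share for protein-coding starts is not comparable. The canonical start itself lay in 11 peaks, among them those of AFP, CNTD1, DPEP2, H3C12, H3C6, LRRC37A, SH3TC2 and TMEM243. At 33 of the 1102 genes (2.99%) the gene start lay in a further peak, so that the downstream peak was not the nearest TTD binding to the start.

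Away from the TSS, the median gap to the next peak, inside or outside the gene, was 30490 bp (quartiles 8995 and 77032 bp), and it was within 5 kb for 18.9% (16.7 to 21.3). In 51.5% of the genes there was at most 1 peak in the gene, and 12.0% had 5 or more, up to 54. The gaps and these counts were not computed for all peaks or all genes. They therefore do not show whether downstream peaks are more isolated than others. Only 4 genes had 2 downstream peaks. They were CNTD1, ENSG00000259060, the olfactory receptor OR4F21 and GCKR, the regulator of glucokinase in liver, whose peaks of 420 and 2330 bp began 492 and 1822 bp from the TSS.

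Over 8 lists of liver, signalling and chromatin genes, 27 of 214 genes, or 12.6% (8.82 to 17.7), had a downstream peak, beside 5.50% of all protein-coding genes. Any peak in the first 2500 bp was present at 24.8% of them, beside the 9.15% of all genes. The share was highest for drug metabolism and transport with 8 of 28 genes (28.6%, 15.3 to 47.1), followed by plasma proteins and by lipid and cholesterol metabolism with 6 of 30 genes each (20.0%, 9.51 to 37.3). CpG islands were rare at the starts of the drug list (3.57% of its genes) and the plasma list (13.3%), and present at 70.0% of the lipid genes, so the lists with most downstream peaks differed in the kind of their starts. Over all TSSs outside islands, 4.06% had a downstream peak.

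In drug metabolism and transport the genes included UGT2B7, SLC10A1, AKR1C1, CYP1A1, CYP3A4, AKR1C2 and ABCC2. UGT2B7, a glucuronosyltransferase, had 4020 bp at 1848 bp downstream, all of it before the canonical transcript, and an upstream flank peak of 4630 bp at 673 bp. SLC10A1, the bile acid uptake carrier, had 3890 bp at 1711 bp, within intron 1. AKR1C1, an aldo-keto reductase, had 3790 bp beginning 718 bp after the TSS. The TSS itself lay in a peak at 13 of 28 genes of this list, beside 2.80% of all genes, and 20 had any peak in the first 2500 bp, beside 9.15%.

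Of the plasma proteins, PLG, FN1, AFP, FGA, TTR and APOC3 had a downstream peak. PLG, the plasminogen gene, had a peak of 6030 bp that began 2307 bp from the TSS and ran from the first into a later intron (chromosome 6, 160704501 to 160710530). FN1, the fibronectin gene, had 4270 bp at 1903 bp, within a later intron. AFP, the alpha-fetoprotein gene, has its gene start in a further peak, and its downstream peak of 4050 bp at 2283 bp contains the canonical start. In this list 7 of 30 genes had the TSS in a peak and 10 an upstream flank peak, beside 2.80% and 8.30% of all genes.

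The lipid genes with a downstream peak included DGAT2, ACSL3, INSIG2, LPIN1 and SREBF2. DGAT2, which makes triglycerides, had 7230 bp at 1889 bp, all of it before the canonical transcript. ACSL3, an acyl-CoA synthetase, had 4440 bp at 1979 bp, while its island ends at 1003 bp. INSIG2, which retains the sterol sensor in the endoplasmic reticulum, had 2700 bp at 2359 bp and a much wider upstream peak of 6120 bp at 452 bp. LPIN1, a phosphatidate phosphatase, had 2180 bp at 2376 bp. In the list of glucose, amino acid and urea metabolism, 3 of 25 genes (12.0%, 4.17 to 30.0) had one. This interval includes the 5.50% of all genes. The genes of this list included PFKFB1, which sets the level of fructose-2,6-bisphosphate, with 2560 bp at 1524 bp. PCK2, the mitochondrial PEP carboxykinase, had 1930 bp at 1278 bp and an upstream peak that ends 63 bp from the TSS.

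No downstream peak was found at any of 25 hepatocyte transcription factors and nuclear receptors, which allows a share of up to 13.3% (upper Wilson limit). Upstream flank peaks were present at 3 of the 25, and 2 had the TSS in a peak, beside 8.30% and 2.80% of all genes. Among 25 genes of insulin, IGF and receptor kinase signalling only IGF2R, the receptor that clears IGF2, had one, with 4020 bp at 1689 bp. Among 27 genes of TGF-beta, BMP and Wnt signalling it was APC, the scaffold that directs beta-catenin to degradation, with 2270 bp at 1933 bp. Of 24 partners of UHRF1 and enzymes of H3K4 and H3K9 methylation, 2 (8.33%, 2.32 to 25.8) had a downstream peak, and both encode demethylases that act on H3K4. KDM1A had 2280 bp at 2058 bp and KDM5B 1200 bp at 2097 bp, both in intron 1 and beyond the island end. In these 4 lists the intervals include the 5.50% of all genes.

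**Figure D5:**
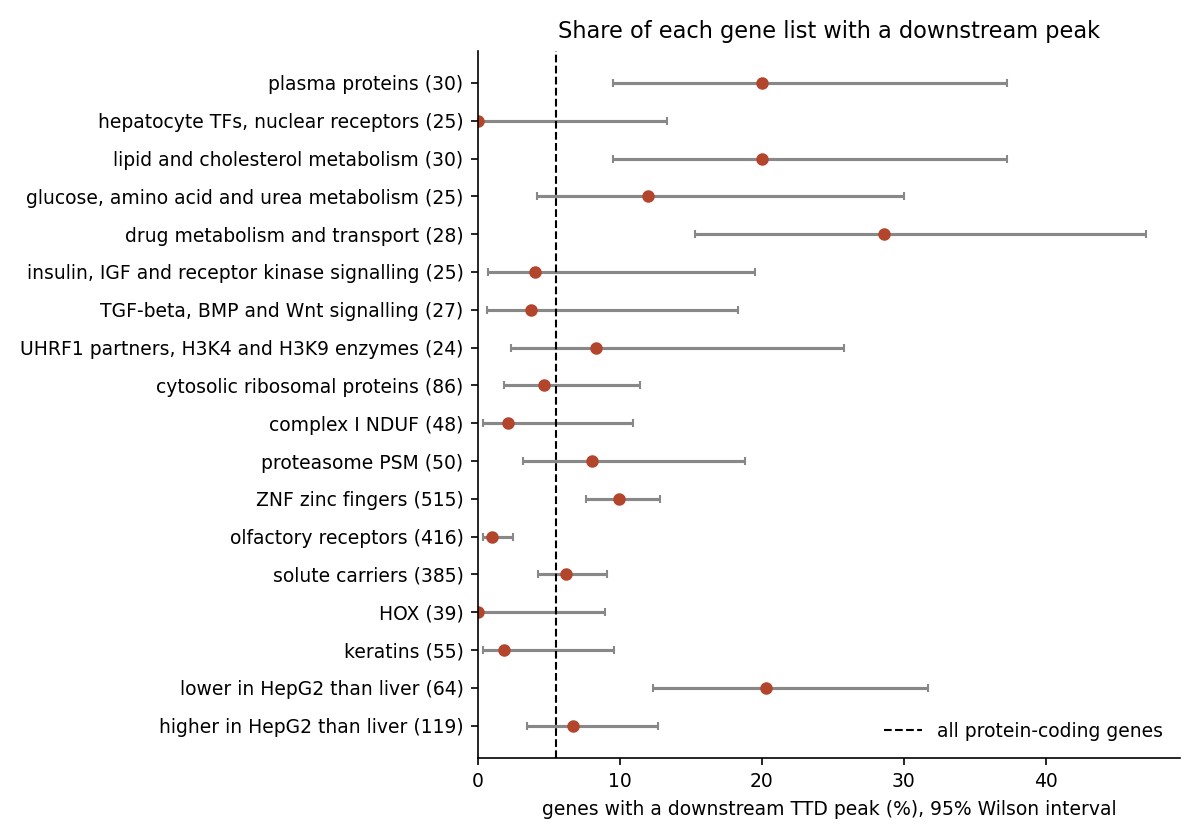
Percent of the genes of each list with a downstream TTD peak, with the 95% Wilson interval (counting error only) and the number of genes in parentheses. The dashed line is the 5.50% of all protein-coding genes, and the intervals of drug metabolism, plasma proteins, lipid metabolism, ZNF genes and the genes lower in HepG2 lie above it, that of the olfactory receptors below.

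Among large gene families, the ZNF zinc finger genes, many of them KRAB repressors of repeats, had a downstream peak at 51 of 515 genes (9.90%, 7.61 to 12.8), beside the 5.50% of all genes, and an upstream flank peak at 68, beside the 8.30% of all genes. ZNF267 had the widest peak of these with 7250 bp at 1594 bp, then ZNF19 with 6930 bp, ZNF189 with 5910 bp and ZNF277 with 5340 bp. On chromosome 19, where these genes are clustered, 22 of 249 ZNF genes (8.84%, 5.91 to 13.0) and 16 of the 1227 other genes (1.30%, 0.804 to 2.11) had a downstream peak. Elsewhere it was 29 of 266 ZNF genes (10.9%, 7.70 to 15.2). A CpG island was present at the TSS of 88.0% of the ZNF genes on chromosome 19.

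In the other families the interval included the 5.50% of all genes or lay below it. Solute carriers had 24 of 385 (6.23%, 4.22 to 9.11), with the widest peak at SLC25A48 (7840 bp), and proteasome genes 4 of 50 (8.00%, 3.15 to 18.8), namely PSMD14, PSME1, PSMF1 and PSMD7. Cytosolic ribosomal proteins had 4 of 86 (4.65%, 1.82 to 11.4). Of these, RPL32 had 3610 bp at 1182 bp, RPS15A 3120 bp, RPS12 2930 bp and RPL37A 1260 bp, each beyond the end of its island. NDUFAF7 was the only gene of 48 for complex I (2.08%, 0.369 to 10.9), and KRT10 the only keratin of 55 (1.82%, 0.322 to 9.61). Of 416 olfactory receptor genes 4 had a downstream peak (0.962%, 0.375 to 2.45), and the peaks at OR6C68 and OR1L1 lay past the end of these short genes. None was found at 39 HOX genes (upper limit 8.97%).

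The study also listed genes by their expression in HepG2 cells relative to liver. It kept only genes past a fold-change cutoff that also had a high level in HepG2 cells or in liver. The lists thus leave out most genes of lower expression. The study compared mean TTD signal around all their annotated starts, whereas called peaks at a single start per gene are counted here. Of 64 genes lower in HepG2, 13 had a downstream peak (20.3%, 12.3 to 31.7), and of 119 genes higher in HepG2 it was 8 (6.72%, 3.45 to 12.7), where the share of the higher list is near the 5.50% of all genes. Upstream flank peaks were present at 17 genes of each list, beside 8.30% of all genes, and the TSS lay in a peak at 12 genes of the lower and 2 genes of the higher list, beside 2.80% of all genes, so the lists also differed in peaks of these other kinds. Wide peaks of the lower list were those of PLG, of SELENOP, which carries selenium in plasma, with 5960 bp at 1892 bp, and of CP, the copper carrier ceruloplasmin, with 5610 bp at only 149 bp. In the higher list they were FN1, AFP, AKR1C1 and RPL32. A CpG island was present at 29.7% of the starts of the lower and 84.9% of the higher list, and its part in the difference was not tested. The study set these lists against TTD in the same samples, so they are not independent evidence.

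Over the autosomes and X, the share of genes with a downstream peak ranged from 0.931% (0.473 to 1.83) on X to 11.4% (9.63 to 13.5) on chromosome 6. Chromosomes 20 (10.8%), 2 (10.3%) and 14 (8.77%) were also high, and 22 (1.34%) and 19 (2.57%) low. An upstream flank peak was present at 17.0% of genes on chromosome 20, 15.7% on 2, 13.8% on 6, 11.7% on 14, 6.26% on 22, 3.79% on 19 and 2.21% on X. The high chromosomes were thus also high for the other flank, and chromosomes 19, 22 and X lay below the 8.30% of all genes there. On chromosome 22 the downstream share rests on 6 of 447 genes. Chromosome 19 held few peaks of any kind, and 38 of its 350 peaks were downstream peaks, beside 1106 of 31569 in the whole list. Over chromosomes 2, 14, 16, 17 and 20, which are held to be gained in HepG2 from general knowledge of the line (not measured here), it was 8.11% (7.34 to 8.95), and over the other autosomes 5.00% (4.66 to 5.37). Within the first group chromosomes 16 (6.18%) and 17 (5.65%) were near the 5.50% of all genes, and chromosome 6, with the highest share, belongs to the second. The methods name no correction for copy number and do not say whether the input was used in peak calling, so binding per copy and number of copies cannot be told apart in this list.

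Motifs of liver factors were counted in the 500 bp inside the near edge, on both strands, for 1082 downstream and 1636 upstream flank windows and 30836 windows of all peaks. The forkhead (FOXA) sequence TGTTTAC was present in 6.65% of the downstream windows (5.32 to 8.30), 6.72% of the upstream windows and 8.31% of all (8.01 to 8.63). The HNF4 sequence CAAAGTCCA was found in 0.647% (0.314 to 1.33), 0.978% and 1.49% (1.36 to 1.63), and the C/EBP sequence TTGCNNAA in 25.3%, 25.5% and 24.2%. The E-box CACGTG, which contains a CpG, was present in 5.27% (4.09 to 6.76), 8.01% (6.79 to 9.42) and 5.51%. Between downstream windows and those of all peaks, which include them, the intervals of the forkhead sequence overlapped and those of the HNF4 sequence, found in 7 downstream windows, just did not.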

How the data were processed

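The values are positions and widths in bp (unit: other) of TTD peaks that the authors deposited as a single list. Per the labels and the methods of the study, reads were trimmed with Trimmomatic 0.38, mapped to hg38 with HISAT2 2.2.1, turned into coverage and averaged over both TTD replicates with deepTools 3.3.2, and broad peaks were called with MACS2 2.1.1 at fixed cutoffs, freed of blacklisted regions and curated by hand. A peak called on a mean cannot show whether both replicates carry it, and the list gives no read depth.

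Peaks were assigned to 20033 protein-coding gene starts (GENCODE release 44, chromosome M left out) by the distance from peak edge to TSS. Exons and introns are those of the Ensembl canonical transcript. CpG islands were called on hg38 as merged 200 bp windows, with gaps up to 100 bp closed. The GC criteria can also be met by CpG-rich repeats, since the sequence was not repeat-masked. Shares carry 95% Wilson intervals. The rule for peaks, the gene lists and the named genes (the widest, nearest and farthest peaks, up to 4 genes for each list, and targets the paper names) were chosen with earlier results of these data known. The assignment and the island calls were tested on simulated data. Python 3.11.15, numpy 2.4.6, pandas 2.3.3, scipy 1.17.1, pysam 0.24.0 and matplotlib 3.10.9 were used. The H3K9me2 ChIP and input libraries and the tracks were not analysed here, and a few genes that the naming rule selects are not reported here.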

Additional observations from a re-analysis of the deposited data

How the results depend on the processing

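No paired analysis was possible because the list pools both replicates, and no replicate could be left out for the same reason. The list has no score, so a stricter cutoff could be mimicked only by width. Of 83 values under other settings, 39 were labelled the same and 44 moved. Shares and medians were judged against the interval of the main setting. Counts have no interval, so their label rests on a tolerance and says little. For instance, 871 peaks at TSSs without a neighbour within 5000 bp were labelled the same as 1106. The count of peaks follows the limit directly. With peaks at or above the median width, there were 483 peaks (median width 3250 bp, 47.2% of flank peaks downstream, 72.5% of TSSs in islands, 11.8% with an upstream peak too, 20.5% with another start). Canonical starts gave 78.6% of edges in intron 1 and 83.5% in islands, and genes of any type gave 2236 peaks, 1136 bp to the edge, 46.9% downstream, 45.5% in intron 1, 50.7% in islands, 13.2% with an upstream peak and 9.70% with another start. A limit of 1000 bp gave 392 peaks, 689 bp, a width of 1895 bp, 25.3% downstream, 59.7% in intron 1, 72.7% in islands, 19.6% with an upstream peak and 17.9% with another start. A limit of 5000 bp gave 1747 peaks, 1875 bp, 43.3% downstream, 63.8% in intron 1, 73.7% in islands and 26.5% with an upstream peak. With midpoints there were 605 peaks, 1823 bp from midpoint to TSS, a width of 1500 bp, 32.7% downstream, 79.3% in islands, 17.5% with an upstream peak and 13.1% with another start. The share with an upstream peak was 21.0% when peaks within 100 bp counted as over the TSS and 21.3% when peaks under 1000 bp apart were joined. Strict islands gave 67.3%, any transcript 85.6% of edges in intron 1, and any peak in the first 2500 bp 53 list genes. Over TSSs without a neighbour within 5000 bp, a setting chosen after seeing the data, 37.3% lay downstream, 73.8% in islands and 29.3% with an upstream peak. The cause of these moves was not tested.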

Other observations

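Precursors of 2 annotated miRNAs lay inside downstream peaks. MIR584 (chromosome 5, 149062313 to 149062409, minus strand) lay in the peak of SH3TC2, and MIR1260B (chromosome 11, 96341438 to 96341526, plus strand) in the peak of MAML2, a coactivator of Notch signalling. The expression of these miRNAs was not analysed here.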
